A study of Mus musculus with 34 samples.

Results

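The 9 genes described here carry the signal from phosphoinositide 3-kinase (PI3K) to the kinase AKT and on to the mTOR kinase and the FOXO transcription factors: Pik3ca, Akt1, Akt2, Mtor, Rptor, Tsc1, Tsc2, Foxo1 and Foxo3. They were found by their symbols in the table of read counts, where they make up 9 of 25965 entries, and all 9 had reads in each of the 34 libraries. The rule uses no measured value.

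The libraries came from cumulus cells, the somatic cells that surround the oocyte, of superovulated C57BL/6J female mice that entered the protocols at 8 weeks of age. Each library was made from about 50 cells. The labels trace them to a cumulus-oocyte complex, and no label says that the libraries of a group came from separate mice, although the study's methods describe the cells as collected per animal. If several libraries share a mouse, p-values measure the spread between libraries, which may be partly technical. In the leptin protocol, mice received saline (16 C, 3 libraries) or recombinant mouse leptin at 100 µg per day, split over a morning and an evening intraperitoneal injection (16 L, 5 libraries), for 16 days. In the diet protocol, mice ate chow with 11% of its energy from fat (CD) or a high-fat diet with 58% (HFD). The diets lasted 4 weeks (5 CD and 5 HFD libraries) or 16 weeks (6 CD and 7 HFD libraries), and the last 3 libraries are from mice whose weight rose little over 16 weeks of HFD (low gainers). The labels name no transgene or deletion in any group, and the groups differ by injection or by diet and time. The low gainers are defined by their weight on the diet and not by a treatment of their own.

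In granulosa and cumulus cells, PI3K is switched on by receptors for insulin, IGF1 and other ligands, and its lipid product brings AKT to the membrane, where AKT is activated. AKT phosphorylates FOXO1 and FOXO3, which then leave the nucleus, and it phosphorylates TSC2 within the TSC1-TSC2 complex, which lifts that complex's brake on RHEB and mTOR complex 1. Most of this control acts on proteins through phosphorylation, and the libraries measure only the messenger RNA. Pik3ca encodes the catalytic subunit p110-alpha, Akt1 and Akt2 encode AKT isoforms, Rptor encodes Raptor, the subunit that brings substrates to mTOR complex 1, and Foxo1 and Foxo3 encode forkhead factors that turn on genes of cell cycle arrest, stress defence, autophagy and cell death.

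In the deposited table, which follows GRCm38, the members lie on 8 chromosomes. Pik3ca (chr3:32397671-32468486, + strand) and Foxo1 (chr3:52268337-52350109, + strand) share a chromosome. Akt1 lies at chr12:112653821-112674884 on the - strand and Akt2 at chr7:27591552-27640826 on the + strand. Mtor lies at chr4:148448611-148557683 (+) and Rptor at chr11:119602905-119899576 (+). Tsc1 lies at chr2:28641228-28691167 (+), Tsc2 at chr17:24595937-24632629 (-) and Foxo3 at chr10:42181841-42276755 (-). Angptl7 overlaps Mtor, A430071A18Rik overlaps Rptor, Pkd1 overlaps Tsc2 and Gm20402 overlaps Foxo1, each on the opposite strand. The library kit does not mark strand, so reads from a shared stretch cannot be told apart between these partners.

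The core of the FOXO binding element, TGTTTAC or its reverse complement GTAAACA, was searched on both strands in RefSeq promoter windows (GRCm38.p6, 250 bases before to 50 after a start). It was found in the promoters of 1 of the 9 members, Akt1, and in those of 4 of the 20 genes with a promoter among 27 listed FOXO family members and known targets (Bbc3, Bcl2l11, Trim63 and Txnip). Over all genes, 1095 of 27025 (4.05%) held it. The windows of Akt1, a member whose values the results below turn on, and of Txnip, the listed target that passed the test on diet, are shown 5′ to 3′ on the gene's strand with the match in capitals; they lie at chr12:112674835-112675134 (-) and chr3:96557707-96558006 (+). A match of these letters is a description and not a binding site.
Akt1 promoter: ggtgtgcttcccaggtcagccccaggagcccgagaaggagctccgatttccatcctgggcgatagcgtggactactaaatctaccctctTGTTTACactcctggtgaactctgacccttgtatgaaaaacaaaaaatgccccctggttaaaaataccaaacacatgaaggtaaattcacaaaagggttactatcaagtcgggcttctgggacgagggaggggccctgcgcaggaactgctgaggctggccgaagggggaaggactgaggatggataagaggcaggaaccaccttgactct
Txnip promoter: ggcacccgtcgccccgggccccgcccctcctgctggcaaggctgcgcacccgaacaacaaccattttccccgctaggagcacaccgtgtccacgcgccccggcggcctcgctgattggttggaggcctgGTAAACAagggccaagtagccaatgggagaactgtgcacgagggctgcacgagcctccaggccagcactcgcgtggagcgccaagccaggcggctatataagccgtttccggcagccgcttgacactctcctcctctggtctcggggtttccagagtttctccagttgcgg

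Counts per library totalled from 1104611 to 13207018. The members were covered by 8 to 4319 reads per library, the lowest being Akt2 and Akt1, with minima of 8 and 9 reads, so counting error is widest for the AKT genes in shallow libraries. Levels per library are given as normalised CPM, that is CPM (counts scaled to a common library total) after TMM factors, which correct for the RNA composition of a library. A gene was called when edgeR's quasi-likelihood test gave a Benjamini-Hochberg adjusted p under 0.05 over all genes tested. Against plain CPM, TMM lowered the median log2 change of all genes from 1.08 to 0.27 for leptin and raised it from -0.40 to -0.05 for the 16-week diet. It moved it from -0.13 to -0.01 for the 4-week diet, from 0.14 to -0.03 for the low gainers against HFD, from -0.28 to -0.08 for the low gainers against CD, from -0.39 to -0.09 for the difference of the diet effects and from 1.29 to 0.28 for leptin against the 4-week diet. The split of calls over all genes moved as well. It went from 476 higher and 528 lower genes with TMM to 3652 and 383 under plain CPM for leptin, from 140 and 359 to 91 and 571 for the 4-week diet, from 1 and 2 to 55 and 1591 for the 16-week diet and from 1212 and 1118 to 1585 and 598 for the low gainers against HFD. It went from 213 and 235 to 187 and 686 for the difference of the diet effects and from 2113 and 1408 to 5383 and 529 for leptin against the 4-week diet.

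Some libraries stood apart from their groups, and these bear on the members. 16 L replicate 18 held the oviduct epithelium markers at a summed 35298 normalised CPM, of which Ovgp1, the oviduct glycoprotein, made up 32721. The same 9 markers summed to 131 to 1850 in the other 16 L libraries and to 202 to 228 in 16 C. The red blood cell markers reached 10964 in that library and 1938 in 16 L replicate 21, and the theca and stroma markers reached 1954 in replicate 18, while the expansion genes Tnfaip6 and Ptgs2 stood at 1.83 and 0.333 there and Has2 and Ptx3 at 0. Mitochondrial reads made up 4.71% in 16 L replicate 19 and 0.435% to 0.654% in the other 16 L libraries. Macrophage and neutrophil markers summed to 1267 and 1402 in 16 L replicates 20 and 23 and to 128 to 763 in 16 C. 16-week CD replicates 1 and 2 had TMM factors above 1 like every 4-week library, and the other 4 libraries of that group had factors below 1. The main member values are given with and without 16 L replicate 18 and 16-week CD replicates 1 and 2. Most values of named list genes are given with all libraries only. Of the 19 cumulus and granulosa markers, Amh was at 0 in the low gainers and all others had reads in every group. They summed to 15459 to 41371 in 16 C against 2009 to 9685 in 16 L, with no overlap, to 2394 to 8120 at 4 weeks, to 4722 to 26115 in 16-week CD, to 5988 to 16388 in 16-week HFD and to 10580 to 13716 in the low gainers. In 16 L, Gja1 was the largest single marker in every library, from 638 of 2009 in replicate 21 to 7808 of 9685 in replicate 19. The sum thus partly follows that gene. Fewer cells of a type and less RNA per cell cannot be told apart in such bulk libraries, and the part of these marker differences in the results was not tested.

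Levels per kilobase of exon (RPKM, from total counts) placed Foxo3, Foxo1 and Pik3ca on top in 5 of the 7 groups, with all libraries included. In 16 L the place of Foxo3 rests on replicate 18, at 393 normalised CPM with the next library at 59.9. The highest mean of Foxo3 in 16-week CD rests on replicate 9, at 398 normalised CPM with the next library at 119. At 4 weeks, Foxo3 (7.95 ± 1.63 in CD and 5.14 ± 2.11 in HFD) stood below Foxo1, Pik3ca, Akt1 (15.9 ± 6.40 and 16.5 ± 8.32) and Tsc2 (14.1 ± 3.26 and 9.51 ± 1.39). Foxo3 had the highest mean RPKM in 16 C (33.1 ± 9.29, SD, n = 3), 16-week CD (14.3 ± 13.3, n = 6), 16-week HFD (17.4 ± 6.09, n = 7) and the low gainers (15.6 ± 4.72, n = 3). Foxo1 had the highest mean in 16 L (23.3 ± 12.5, n = 5), 4-week CD (27.7 ± 6.81, n = 5) and 4-week HFD (19.3 ± 4.33, n = 5). The order of these leading genes is within their spread in several groups: in 16 L, Foxo3 stood at 14.5 ± 17.98 and Pik3ca at 14.1 ± 3.30, and in 16-week CD, Foxo1 stood at 13.4 ± 5.10 and Pik3ca at 9.54 ± 2.40 RPKM. Rptor was the lowest of the 9 in all 7 groups, from 0.605 ± 0.209 RPKM in 16 C to 4.96 ± 1.55 in 4-week CD, and this held with TMM-scaled RPKM. The next genes above it were Akt2 (1.01 ± 0.106 RPKM), Tsc2 (1.55 ± 0.535), Mtor (1.78 ± 0.647) and Tsc1 (1.84 ± 0.918) in 16 C, of which the last 3 did not differ beyond their spread. By total counts, Akt1 spanned the widest ratio between group means, from 1.41 ± 0.408 RPKM in 16-week HFD to 16.5 ± 8.32 in 4-week HFD, and Pik3ca the narrowest, from 7.15 ± 1.39 in the low gainers to 16.4 ± 5.25 in 4-week CD. With TMM-scaled RPKM both places changed: Foxo3 spanned the widest ratio, from 4.48 ± 1.83 in 4-week HFD to 48.9 ± 17.1 in 16 C, and Mtor the narrowest, from 2.46 ± 0.661 in 16-week HFD to 4.61 ± 1.28 in 4-week CD.

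**Figure D1:**
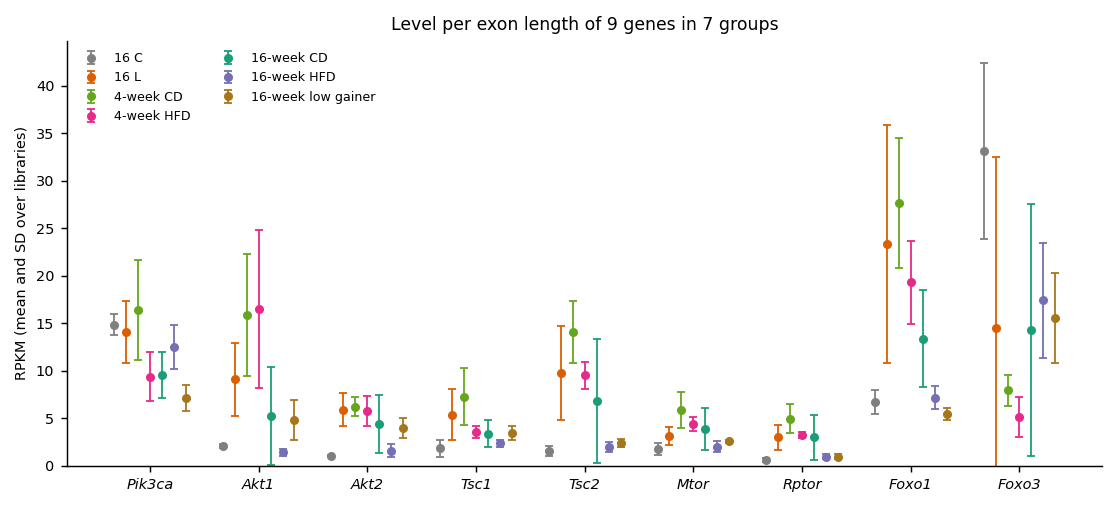
Mean RPKM (level per exon length and library total, vertical axis) of the 9 genes in the 7 groups, with SD as error bars that are cut at 0. Foxo3, Foxo1 and Pik3ca lie on top outside the 4-week groups, and Rptor lies lowest in all 7 groups, at 0.605 in 16 C. The place of Foxo3 in 16 L rests on replicate 18, and its highest mean in 16-week CD rests on replicate 9.

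**Figure D2:**
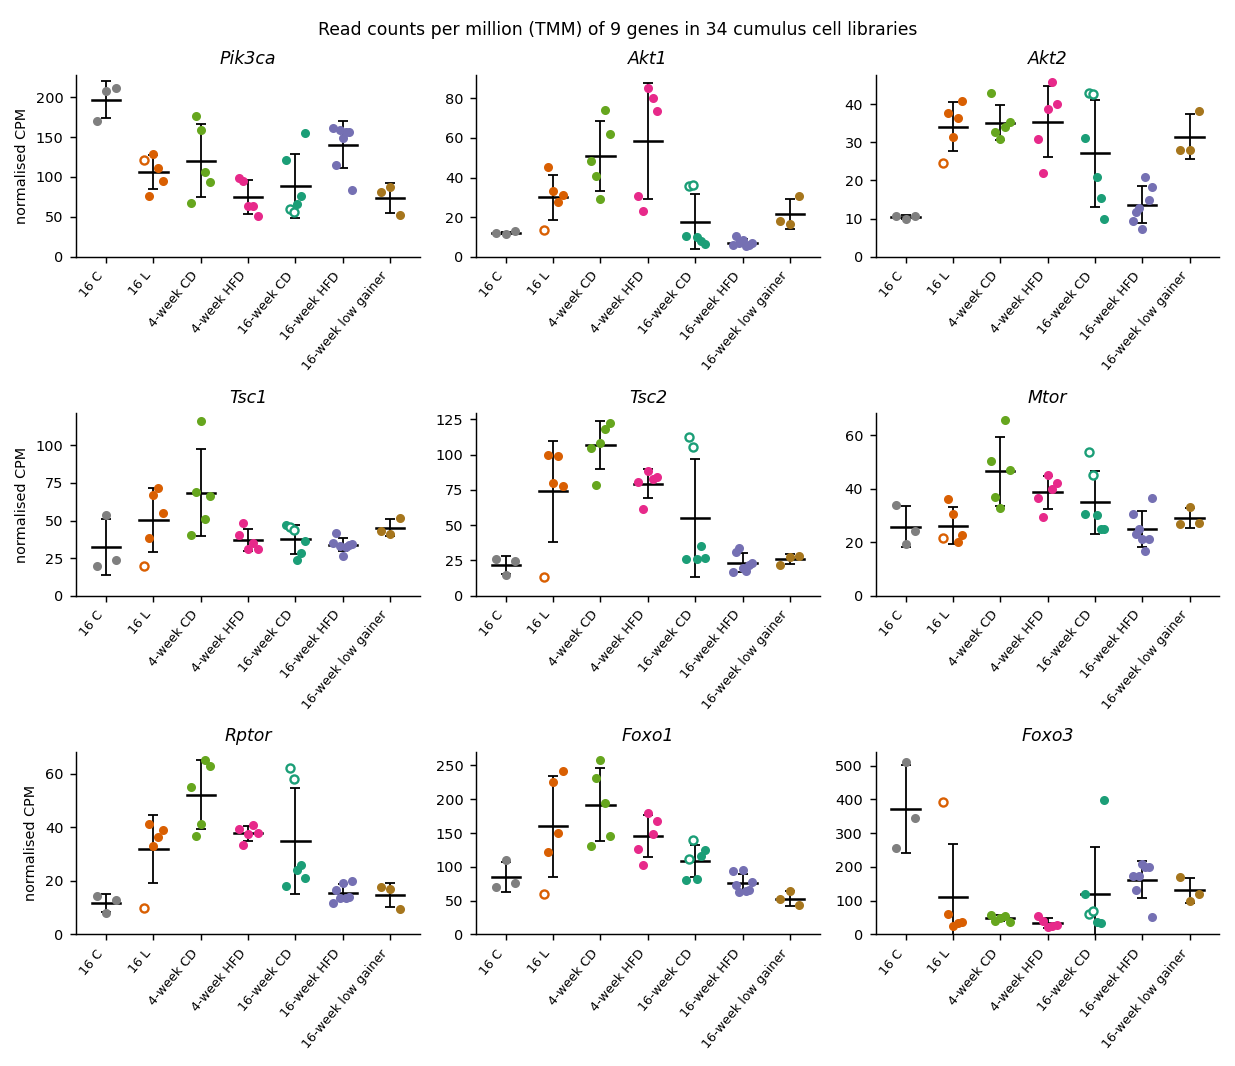
Normalised CPM (vertical axis, from 0) of each gene in each of the 34 libraries by group, with the group mean as a horizontal bar and the SD as an error bar cut at 0. Open points mark 16 L replicate 18 and 16-week CD replicates 1 and 2. In the Foxo3 panel, 16 L replicate 18 stands at 393 while the other 16 L libraries lie between 25.7 and 59.9.

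Leptin against saline asks what 16 days of raised leptin without a diet change did to these transcripts. Of the 9 members, 1 was called in 16 L against 16 C, Akt2, which was higher, while 8.56% of all genes were called. Its level was 10.6, 9.94 and 10.8 normalised CPM in 16 C replicates 1, 2 and 3, and 24.5, 37.7, 31.3, 36.5 and 40.8 in 16 L replicates 18, 19, 20, 21 and 23. Every 16 L library lay above every 16 C library, the lowest being replicate 18. The log2 change was 1.71 (SE 0.335, adjusted p = 0.0242) against a median of 0.27 over all genes. The call was lost without 16 C replicate 1 (adjusted p = 0.117), 2 (0.0827) or 3 (0.123) and without 16 L replicate 20 (0.0658), 21 (0.0612) or 23 (0.0752), with log2 changes between 1.66 and 1.75, and it was kept without 16 L replicate 18 or 19.

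Pik3ca and Akt1, the other genes of the upstream kinases, did not pass. Pik3ca stood at 171, 208 and 212 normalised CPM in 16 C and at 121, 75.8, 128, 112 and 95.2 in 16 L. All 5 treated libraries lay below all 3 controls, with a log2 change of -0.88 (SE 0.309, adjusted p = 0.0921). Akt1 stood at 12.1, 11.7 and 12.7 in 16 C and at 13.3, 45.3, 33.1, 27.5 and 31.0 in 16 L, again without overlap, although replicate 18 lay just above the controls (log2 change 1.295, SE 0.421, adjusted p = 0.0766). In all, 2 members were higher and 1 was lower without overlap between the groups, while 23.3% of all genes did not overlap.

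Among the genes of the mTOR branch, Tsc2 and Rptor differed most in level and also carried replicate 18 as their exception. Tsc2, the GTPase-activating subunit of the TSC complex, stood at 25.8, 14.3 and 24.3 normalised CPM in 16 C and at 12.8 in replicate 18, but at 99.5, 80.1, 99.1 and 77.9 in the other 16 L libraries. Rptor stood at 14.4, 7.93 and 12.7 in 16 C, at 10.0 in replicate 18 and at 41.2, 33.1, 36.5 and 39.1 in the others. Replicate 18 thus lay within the range of the controls for Rptor and below it for Tsc2. The log2 changes were 1.79 (SE 0.605, adjusted p = 0.0853) for Tsc2 and 1.46 (SE 0.497, adjusted p = 0.0858) for Rptor. Tsc1, whose protein stabilises TSC2, ran from 19.7 to 53.5 in 16 C and from 20.0 to 71.6 in 16 L, and Mtor from 19.2 to 34.1 and from 20.0 to 36.1. Both overlapped between the groups, with log2 changes of 0.60 (SE 0.502) and 0.03 (SE 0.353).

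The FOXO genes showed opposite signs. Foxo3, the FOXO factor known for holding primordial follicles dormant in oocytes, stood at 255, 511 and 345 normalised CPM in 16 C and at 59.9, 25.7, 33.0 and 35.8 in 16 L replicates 19, 20, 21 and 23. Replicate 18, at 393, lay within the controls, and with it the log2 change of -1.71 (SE 0.895, adjusted p = 0.211) did not pass. Foxo1, the main FOXO factor of granulosa cells, stood at 69.7, 111 and 75.7 in 16 C, at 60.2 in replicate 18 and at 122, 225, 150 and 241 in the other 16 L libraries. Again replicate 18 lay apart from its group, below the controls (log2 change 0.89, SE 0.468, adjusted p = 0.213).

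Without 16 L replicate 18, 7 of the 9 members were called, 5 higher and 2 lower, and the background rose with them: 41.8% of all genes were called and 47.8% did not overlap, against 5 higher and 2 lower members without overlap. Tsc2 rose by 2.00 on the log2 scale (SE 0.281, adjusted p = 0.000585), Akt2 by 1.72 (adjusted p = 0.00106), Rptor by 1.64 (adjusted p = 0.00211), Akt1 by 1.403 (adjusted p = 0.00428) and Foxo1 by 1.01 (adjusted p = 0.0353). Foxo3 fell by 3.36 (SE 0.368, adjusted p = 0.000167) and Pik3ca fell by 1.03 (SE 0.265, adjusted p = 0.0125). The median of all genes was then 0.10. Tsc1 (0.69, adjusted p = 0.200) and Mtor (0.03, adjusted p = 0.947) were not called. By other tools with all 8 libraries, DESeq2 called 5 members and limma-voom with library weights called 8. Of all 11723 genes tested, DESeq2 called 2629 and limma-voom 7552.

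The members differ in base composition. The longest transcripts of Akt1 (59.7% GC), Rptor (56.5%), Akt2 (55.2%) and Tsc2 (54.7%), which were higher without replicate 18, lay above the upper quartile of all genes, 54.2%, and those of Pik3ca (41.2%), which was lower without it, lay below the lower quartile, 44.7%. Foxo1 (48.5%), also higher without replicate 18, lay below the median of 49.5%. Mtor (54.2%), just under the upper quartile, and Tsc1 (51.7%) were not called without replicate 18, at log2 changes of 0.03 and 0.69. With offsets for GC content and length, a setting added after the data were seen, no member was called by edgeR in 16 L against 16 C, 1 was at an unadjusted p under 0.05, and Akt2 had a log2 change of 0.85 (adjusted p = 0.103). In that fit 626 of 10588 genes were called. With the offsets and without replicate 18, 3 members were called, while 3496 of 10004 genes were called. Foxo3 fell by 3.95 (adjusted p = 6.68e-05), Tsc2 rose by 1.18 (adjusted p = 0.0139) and Akt2 rose by 0.83 (adjusted p = 0.0348). Akt1 (0.24, adjusted p = 0.635) and Rptor (0.53, adjusted p = 0.229) lost their calls, as did Foxo1 (0.86, adjusted p = 0.0605) and Pik3ca (-0.82, adjusted p = 0.0545). Foxo3, at 53.2% GC, had the largest change of the 9 without replicate 18, with and without the offsets.

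**Figure D3:**
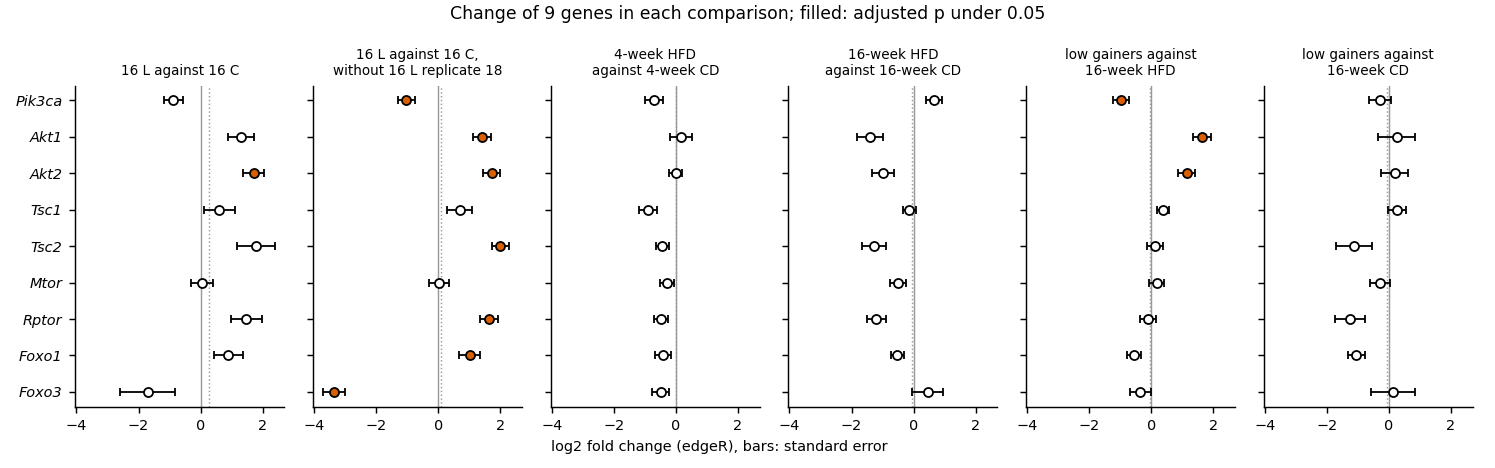
Log2 fold changes (horizontal axis) of the 9 genes with their standard errors in 5 comparisons and in 16 L against 16 C without 16 L replicate 18. Filled points are called at an adjusted p under 0.05 and the dotted line is the median of all genes. Without replicate 18, 7 points are filled, with Foxo3 farthest to the left at -3.36.

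Regulators and partners of the pathway were read from 6 lists of 99 genes without the 9 members. In 16 L against 16 C, 6 of 88 tested genes were higher and 5 were lower, while 8.56% of all genes were called. These 11 calls became 44 without 16 L replicate 18, where 41.8% of all genes were called. They became 1 without 16 C replicate 1 or 3 or 16 L replicate 20 or 23, where calls over all genes fell to 30, 31, 64 and 44. They became 2 without 16 C replicate 2, 4 without 16 L replicate 21 and 7 with GC and length offsets. Calls over all genes were 102, 150 and 626 in those fits. Among PI3K subunits and lipid phosphatases, 3 of 13 were higher and 1, not reported here by name, was lower. The list's median log2 change was 1.05 against 0.27 over all genes. The regulatory subunit gene Pik3r2 (1.91, adjusted p = 0.0435), the catalytic subunit gene Pik3cd (2.25, adjusted p = 0.0496) and Inppl1, which encodes the lipid phosphatase SHIP2 (2.39, adjusted p = 0.0469), rose. With the offsets they stood at 0.69, 1.11 and 1.27 and did not pass (adjusted p = 0.419, 0.170 and 0.139).

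Among the mTOR complex subunits, 2 of 7 tested were higher and 1 was lower, with a median of 1.00. Mlst8, which encodes a subunit shared by both mTOR complexes, went from 1.54 to 3.79 normalised CPM in 16 C to between 13.3 and 31.0 in 16 L (log2 change 3.28, SE 0.512, adjusted p = 0.0131), a rise that starts from a few reads. Mapkap1, for the mTOR complex 2 subunit SIN1, rose by 1.52 (adjusted p = 0.0438), and Deptor, an inhibitor of mTOR, fell by 1.91 (adjusted p = 0.0438). Of 22 genes of TSC, RHEB, RAG and nutrient sensing, 1 was lower and none was higher: the RAG GTPase gene Rragd fell by 1.71 (adjusted p = 0.0229). Of 12 mTOR complex 1 outputs, 1 was higher, the autophagy kinase gene Ulk1 (1.94, adjusted p = 0.0366), which stood at 0.69 with the offsets and did not pass (adjusted p = 0.156). Of 11 genes around AKT, 0 were called by edgeR, with 5 at an unadjusted p under 0.05, 2 called by DESeq2 and 6 by limma-voom.

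Of 23 FOXO family members and known FOXO targets, 2 were lower, both inhibitors of cyclin-dependent kinases. Cdkn1b, which encodes p27, was among the most abundant transcripts named here, with 4901, 8313 and 11875 normalised CPM as lowest, median and highest value in 16 C and 406, 426 and 674 in 16 L. It fell by 4.07 (SE 0.523, adjusted p = 0.00825) and passed the threshold in 17 of 17 alternatives. Cdkn1a, which encodes p21, fell by 1.87 (SE 0.387, adjusted p = 0.0270). The list's median of 0.10 lay below the 0.27 of all genes. Without replicate 18, 21 of 86 tested list genes were higher and 23 were lower, while 41.8% of all genes were called. The list of FOXO targets split into 5 higher and 6 lower. Inpp4a, a lipid phosphatase gene (-5.37, adjusted p = 6.86e-05), Lamtor2, a subunit of the lysosomal Ragulator scaffold (-2.76, adjusted p = 8.89e-05), and Gsk3b, a kinase that AKT inhibits (-3.96, adjusted p = 0.000129), were then among the lower genes.

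High-fat diet against chow for 4 weeks asks for an early effect of the diet. None of the 9 members was called by edgeR, with 3 at an unadjusted p under 0.05, 1 called by DESeq2 and 5 by limma-voom. Of all 11727 genes, edgeR called 4.26%, DESeq2 called 1291 and limma-voom called 4048. Tsc1 came nearest. It stood at 68.8, 116, 51.1, 66.2 and 40.6 normalised CPM in 4-week CD replicates 1, 2, 7, 8 and 11 and at 30.8, 34.7, 30.9, 40.4 and 48.1 in 4-week HFD replicates 3, 4, 5, 13 and 14. The groups overlapped through CD replicate 11 and HFD replicate 14, and the log2 change was -0.90 (SE 0.283, adjusted p = 0.0775). Without 4-week CD replicate 11 the value was -1.05 and passed (adjusted p = 0.0207), while 1700 of 11794 genes were called.

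The remaining members overlapped as well, so that 0 of 9 separated the diets at 4 weeks, where 6.61% of all genes did. Pik3ca stood at 177, 159, 106, 93.3 and 67.7 normalised CPM in CD and at 63.2, 63.6, 51.1, 99.2 and 94.7 in HFD (log2 change -0.71, SE 0.295, adjusted p = 0.158). Rptor had a log2 change of -0.49 (SE 0.217), Foxo3 -0.50, Tsc2 -0.45, Foxo1 -0.43 and Mtor -0.29. Akt1, from 29.2 to 74.0 in CD and from 23.04 to 85.3 in HFD, had 0.17 (SE 0.351), and Akt2 had -0.02 (SE 0.225). In all, 8 of 9 values were below 0, with a median of -0.45 against -0.01 over all genes. With GC and length offsets, Rptor stood at -0.01, Mtor at -0.02, Tsc2 at -0.16, Foxo3 at -0.27 and Foxo1 at -0.31. In that fit Tsc1 stood at -0.61, Pik3ca at -0.75, Akt2 at 0.18 and Akt1 at 0.34, and no member was called. The Akt1 values within HFD were spread as replicates 3, 4 and 5 (85.3, 80.0 and 73.6) and replicates 13 and 14 (30.8 and 23.04). HFD replicate 5 also held the oocyte markers at 398 normalised CPM, against at most 19.3 in the other 4-week libraries.

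Of 85 tested list genes, 1 was called at 4 weeks, while 4.26% of all genes were called. Txnip, which encodes a thioredoxin-binding protein that limits glucose uptake and whose promoter above holds the FOXO core, had 9.54, 38.4 and 53.4 normalised CPM as lowest, median and highest value in CD and 48.2, 108 and 164 in HFD. The groups overlapped at their edges, and Txnip rose by 1.58 (SE 0.419, adjusted p = 0.0452). It passed the threshold in 7 of 18 alternatives, with adjusted p up to 0.115.

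At 16 weeks, HFD against CD gave no called member by edgeR, 6 at an unadjusted p under 0.05, 3 called by DESeq2 and none by limma-voom. Of all 10861 genes, edgeR called 0.0276%, DESeq2 called 1056 and limma-voom called 5. All values of the 2 groups overlapped for the 9 members, while 0.976% of all genes did not overlap. Akt1 ran from 6.35 to 36.3 normalised CPM in CD (median 10.1) and from 5.65 to 10.3 in HFD (median 6.68), with a log2 change of -1.40 (SE 0.429, adjusted p = 0.0741). Tsc2 ran from 25.6 to 112 in CD (median 30.7) and from 17.0 to 33.7 in HFD (median 21.5), at -1.28 (SE 0.388, adjusted p = 0.0729). Rptor ran from 18.03 to 62.0 (median 24.9) and from 11.7 to 19.8 (median 13.98), at -1.20 (SE 0.316, adjusted p = 0.0654). The high ends of these ranges were CD replicates 1 and 2, at 35.6 and 36.3 for Akt1, 112 and 105 for Tsc2 and 62.0 and 58.2 for Rptor. With GC and length offsets the values were -0.57 for Akt1, -0.62 for Tsc2, -0.57 for Rptor and -0.37 for Akt2 (-0.99 without the offsets).

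Without 16-week CD replicates 1 and 2, an alternative added after the data were seen, the values shrank to -0.28 for Akt1, -0.23 for Tsc2, -0.47 for Rptor and -0.41 for Akt2 (from -0.99). No member was called then by edgeR, 1 was at an unadjusted p under 0.05, and 0.00909% of all genes were called and 1.38% did not overlap. CD replicate 9 pulled the other way. It held Foxo3 at 398 normalised CPM, while the other CD libraries ran from 32.6 to 119 and HFD from 50.8 to 209, and its cumulus and granulosa markers summed to 26115, the highest of its group. Without it 6 members were called, and calls over all genes rose to 2222 of 10830. Pik3ca (0.90, adjusted p = 0.0195) and Foxo3 (1.36, adjusted p = 0.0200) were then higher. Akt1 (-1.59, adjusted p = 0.0174), Akt2 (-1.17, adjusted p = 0.0200), Rptor (-1.32, adjusted p = 0.0158) and Tsc2 (-1.43, adjusted p = 0.0193) were lower. Without CD replicate 13, Rptor (-1.33, adjusted p = 0.0441) and Tsc2 (-1.42, adjusted p = 0.0483) passed, while 473 of 11017 genes were called. With all libraries Pik3ca stood at 0.67 (SE 0.262, adjusted p = 0.131), Foxo1 at -0.52, Mtor at -0.50, Foxo3 at 0.45 (SE 0.510) and Tsc1 at -0.15. None of 79 tested list genes was called by edgeR, with 22 at an unadjusted p under 0.05, 8 by DESeq2 and 0 by limma-voom.

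Low gainers against 16-week HFD compares mice on the same diet that gained little weight with the rest. Here 3 of 9 members were called, while 20.7% of all genes were called: the AKT genes were higher and Pik3ca was lower. Akt1 stood at 18.1, 16.3 and 30.5 normalised CPM in low gainer replicates 21, 22 and 23 and had 5.65, 6.68 and 10.3 as lowest, median and highest value in HFD. The groups did not overlap, and Akt1 rose by 1.62 (SE 0.285, adjusted p = 0.00189). Akt2 stood at 28.0, 28.1 and 38.3 against 7.35, 12.7 and 21.0, without overlap (log2 change 1.13, SE 0.269, adjusted p = 0.00855). Pik3ca stood at 81.0, 86.8 and 51.8 against 84.2, 156 and 162, with replicate 22 just inside the HFD range (log2 change -0.99, SE 0.252, adjusted p = 0.0125).

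Thus 2 members were higher without overlap, where 20.4% of all genes did not overlap. Without low gainer replicate 23, which had the highest Akt1 and Akt2 and the lowest Pik3ca of its group, Akt1 kept its call, while Akt2 (0.97, adjusted p = 0.0823) and Pik3ca (-0.78, adjusted p = 0.105) lost theirs. With GC and length offsets, Akt1 stayed called at 0.87 (adjusted p = 0.0451), and Akt2 (0.68) and Pik3ca (-0.53) did not pass. Over all genes, 596 of 11492 were called without replicate 23 and 1055 of 10164 with the offsets. Foxo1 stood at 52.0, 64.1 and 43.0 normalised CPM in the low gainers against 62.9 to 94.6 in HFD (log2 change -0.56, SE 0.216, adjusted p = 0.0707). The share of mitochondrial reads did not overlap between these groups, at 0.337% to 0.614% in the low gainers and 0.786% to 1.53% in HFD, and its part in these values was not tested. The mTOR branch lay near 0, with Mtor at 0.17, Tsc1 at 0.38, Tsc2 at 0.11 and Rptor at -0.10, the last being 0.04 with plain CPM. Foxo3, at 171, 99.8 and 121 against 50.8 to 209, had -0.36 (SE 0.337).

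Of 81 tested list genes, 9 were higher and 8 were lower in the low gainers than in HFD, where 20.7% of all genes were called. These 17 calls became 5 without low gainer replicate 23, 9 without replicate 22, 11 without replicate 21, 9 with GC and length offsets and 3 in a fit of all 34 libraries. Over all genes, the 2330 calls became 596, 1456, 1145, 1055 and 487 in the same order. Of the 22 genes of nutrient sensing, 5 were higher and 2 lower. Flcn, for folliculin, a partner of the RAG GTPases (1.17, adjusted p = 0.00288), Rragc, for a RAG GTPase (1.09, adjusted p = 0.00764), Stk11, for the kinase LKB1 (1.12, adjusted p = 0.00297), Lamtor1 (0.69, adjusted p = 0.0258) and Nprl3, of the GATOR1 complex (0.63, adjusted p = 0.0478), rose. Lamtor5 (-0.92, adjusted p = 0.0167) and the AMPK subunit gene Prkaa2 (-1.42, adjusted p = 0.0430) fell. With the offsets Flcn (0.61), Stk11 (0.41), Nprl3 (0.37) and Prkaa2 (-0.99) did not pass. Lamtor1 and Lamtor5, which the table lists under older symbols, were not in the fit with offsets. Rragc stood at 84.1 to 120 normalised CPM in the low gainers against 21.0 to 65.3 in HFD and passed in 18 of 18 alternatives.

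In the other lists, Pdpk1, for the kinase PDK1 that activates AKT, fell by 0.84 (adjusted p = 0.0145), and Rictor, for the defining subunit of mTOR complex 2, fell by 0.92 (adjusted p = 0.0157). Pik3r2 (1.66, adjusted p = 0.00728), Telo2 (0.97, adjusted p = 0.0246), Rps6kb2 (1.31, adjusted p = 0.0178) and Eef2k (0.65, adjusted p = 0.0324) rose. None of these 6 passed with the offsets, nor did Insr (-0.44). In the FOXO list 2 of 19 were lower, Bcl6 (-1.24, adjusted p = 0.00745) and Insr (-0.78, adjusted p = 0.0354), and the list's median was -0.29 against -0.03 over all genes.

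Low gainers against 16-week CD gave no called member by edgeR, 2 at an unadjusted p under 0.05, 1 by DESeq2 (Foxo1, lower) and none by limma-voom. Of all 11620 genes, edgeR called 0.00861%, DESeq2 called 250 and limma-voom called 196. This comparison shares the low gainer libraries with the last and the CD libraries with the one before. Foxo1, at 43.0 to 64.1 normalised CPM, lay below all CD libraries, at 80.4 to 140 (log2 change -1.05, SE 0.282, adjusted p = 0.257). Rptor, at 17.7, 16.9 and 9.64, lay just below the CD range of 18.03 to 62.0 (log2 change -1.26, SE 0.478, adjusted p = 0.373). These were the 2 members without overlap, where 7.52% of all genes did not overlap. Akt1 had 0.24 and Akt2 0.19, values that became -0.123 and -0.125 with plain CPM. Tsc2 had -1.13 (SE 0.567, adjusted p = 0.498). Pik3ca and Mtor had -0.29 each, Tsc1 had 0.26 and Foxo3 had 0.12. Without CD replicates 1 and 2, Akt1 stood at 1.32 (SE 0.324, adjusted p = 0.143) and Tsc2 at -0.12, 1 member was higher and 2 were lower without overlap, and 0.0271% of all genes were called and 16.3% did not overlap. None of 85 list genes was called by edgeR, with 12 at an unadjusted p under 0.05, 0 by DESeq2 and 1 by limma-voom.

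The difference between the diet effects at 16 and at 4 weeks was tested as an interaction, the 16-week change minus the 4-week change. By edgeR none of the 9 was called, 4 were at an unadjusted p under 0.05, DESeq2 called 1 and limma-voom 2. Of all 12235 genes, edgeR called 3.66%, DESeq2 called 1165 and limma-voom called 2355. Pik3ca came nearest at 1.42 (SE 0.420, adjusted p = 0.0512), made up of the -0.71 at 4 weeks and the 0.67 at 16 weeks. It passed without 16-week CD replicate 9 (1.69, adjusted p = 0.00836) or 13 (1.53, adjusted p = 0.0412), 16-week HFD replicate 6 (1.52, adjusted p = 0.0386), 4-week CD replicate 11 (1.57, adjusted p = 0.0207), or 4-week HFD replicate 13 (1.53, adjusted p = 0.0481) or 14 (1.505, adjusted p = 0.0493). Calls over all genes ranged from 453 to 1685 in these fits, against 448 with all libraries. Without 16-week CD replicates 1 and 2 Pik3ca stood at 1.15 (adjusted p = 0.132), and 0.725% of all genes were called. Akt1 had -1.49 (adjusted p = 0.107) and Foxo3 0.98 (adjusted p = 0.390). Both passed without CD replicate 9, at -1.65 (adjusted p = 0.0387) and 1.98 (adjusted p = 0.0104), while 1685 of 12208 genes were called. With all libraries, Tsc1 stood at 0.84 (adjusted p = 0.135) and Akt2 at -0.88 (adjusted p = 0.210). Tsc2 stood at -0.72, Rptor at -0.61, Mtor at -0.12 and Foxo1 at -0.04. None of 87 list genes was called by edgeR, with 14 at an unadjusted p under 0.05, 4 by DESeq2 and 13 by limma-voom.

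The leptin effect was set against the 4-week diet effect, as the leptin change minus the diet change, over 18 libraries with separate controls. Of the 9 members, 3 were called, while 27.2% of all genes were called. Tsc2 differed by 2.17 (SE 0.570, adjusted p = 0.0104), Rptor by 1.88 (SE 0.482, adjusted p = 0.00904) and Akt2 by 1.64 (SE 0.360, adjusted p = 0.00410), each higher under leptin relative to the diet. Tsc1 (1.42, adjusted p = 0.0737), Foxo1 (1.25, adjusted p = 0.0738), Akt1 (1.05), Mtor (0.25), Pik3ca (-0.25, and 0.73 with plain CPM) and Foxo3 (-1.34, adjusted p = 0.259) did not pass.

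Without 16 L replicate 18, 6 of 9 were called in that contrast and 43.5% of all genes. Tsc2 stood at 2.46 (adjusted p = 1.06e-05), Rptor at 2.14, Akt2 at 1.75, Tsc1 at 1.61 (adjusted p = 0.0151), Foxo1 at 1.46 (adjusted p = 0.00814) and Foxo3 at -2.86 (adjusted p = 7.38e-05). Tsc1 also passed without 16 C replicate 2 (2.04, adjusted p = 0.0218), while 3151 of 13516 genes were called. With GC and length offsets no member was called by edgeR and 0 were at an unadjusted p under 0.05, and Tsc2 stood at 0.96 (adjusted p = 0.146), Rptor at 0.28 and Akt2 at 0.55. In that fit 2480 of 11661 genes were called. With the offsets and without replicate 18, Tsc2 (1.22), Foxo1 (1.14) and Foxo3 (-3.78) were called, while 4328 of 11477 genes were called. With all libraries and no offsets, 14 of 91 list genes were higher and 14 lower, while 27.2% of all genes were called. Among them were Mlst8 (3.57, adjusted p = 0.000249) and Cdkn1b (-3.91, adjusted p = 0.000497). Foxo4, a further FOXO gene, stood at 2.38 (adjusted p = 0.0137), and Gsk3b at -3.20 (adjusted p = 0.0130).

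Across all 34 libraries, the levels of Tsc2 and Rptor moved with the TMM factor of the library. In the 16 libraries with a TMM factor above 1, which are all 4-week libraries, 16 L replicates 19, 20, 21 and 23 and 16-week CD replicates 1 and 2, Tsc2 ran from 61.5 to 122 normalised CPM. In the 18 libraries with a factor below 1 it ran from 12.8 to 34.8. Rptor ran from 33.1 to 65.2 in the former and from 7.93 to 25.8 in the latter, so neither gene overlapped between these sets of libraries. The other 7 members overlapped. The share of all genes that separate between these sets was not counted, so the split is not shown to be particular to Tsc2 and Rptor. Foxo3 ran the other way, with medians of 39.6 and 173, and Foxo1 had medians of 149 and 74.7. The 50 most abundant genes took 13.4% to 20.2% of the reads in the 16 libraries and 19.8% to 34.6% in the 18. In the leptin protocol all 16 C libraries and 16 L replicate 18 had a factor below 1 and the other 16 L libraries had one above 1, so library composition and leptin cannot be told apart for these genes.

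**Figure D4:**
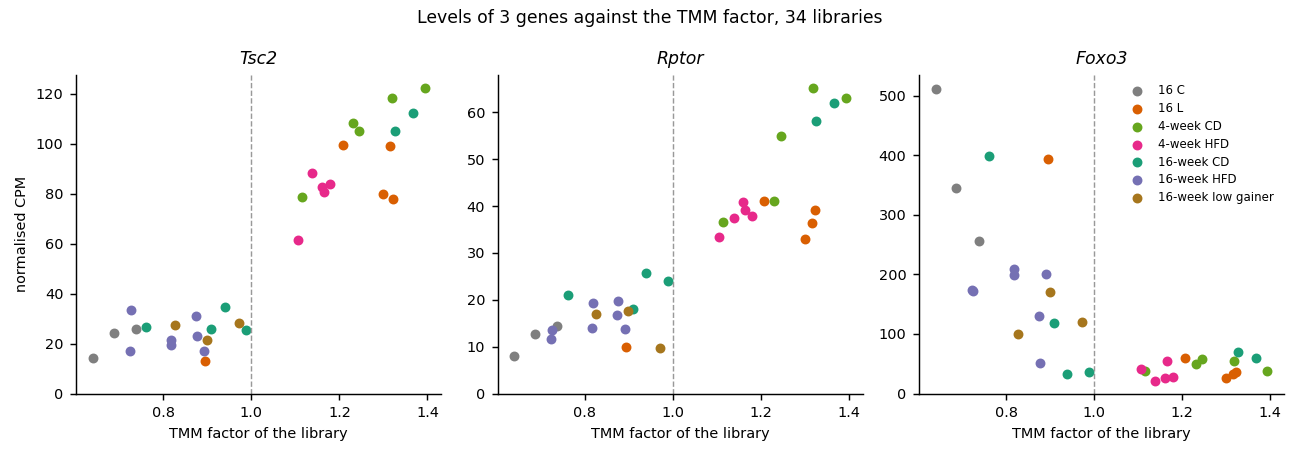
Normalised CPM of Tsc2, Rptor and Foxo3 (vertical axis) against the TMM factor of the library (horizontal axis), 1 point per library in 34 libraries, with a dashed line at a factor of 1. Right of the line Tsc2 lies at 61.5 or more and left of it at 34.8 or less.

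The likeness of patterns was described by Spearman's rho of log2 CPM over the 34 libraries, among 9118 genes with a mean CPM of at least 10. The libraries share depth, composition and group, so no p is given. Among the members, Rptor and Tsc2 were most alike (0.893, and 0.752 after group means were removed), followed by Akt1 and Akt2 (0.841 and 0.588). Pik3ca and Akt2 ran against each other (-0.690 and -0.550), and so did Foxo1 and Foxo3 (-0.674), less so without group means (-0.274). The genes most like each member were Sfpq and Sp1 for Pik3ca (0.912 and 0.910), Ptov1 and Fzr1 for Akt1 (0.948 each), Tkt and Ctbp1 for Akt2 (0.928 and 0.921), Rab3gap2 and Isyna1 for Mtor (0.788 and 0.787) and Sec16a and Mkl1 for Rptor (0.935 and 0.915). Tsc1 was most like Tubgcp4 and Ddx17 (0.797 and 0.767), Tsc2 like Sbf1 and Cul9 (0.927 and 0.920), Foxo1 like Zfp36 and Me1 (0.905 and 0.887) and Foxo3 like B230120H23Rik and Birc6 (0.957 and 0.925). The highest of these values belonged to Foxo3, and the lowest to Tsc1 and Mtor. All were lower after group means were removed, from 0.528 for Zfp36 with Foxo1 to 0.897 for Sbf1 with Tsc2, so they partly follow the groups.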

How the data were processed

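Poly(A) RNA of about 50 cumulus cells per library was made into cDNA by Smart-seq2 and into libraries with Nextera XT, without strand marks or molecular identifiers. Per the labels, that is the submitters' processing notes, reads were trimmed with Trim Galore 0.4.2 and aligned with HISAT2 2.0.5 to GRCm38. The deposited values are raw counts of reads per gene, 1 column per library; the counting program and annotation are not given in the sources used here. No row without a gene name and no column of samples outside the series (0) was found.

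Each comparison was fitted on its own libraries with edgeR 4.0.16 (R 4.3.3): TMM scaling, filterByExpr, robust quasi-likelihood F-test, two-sided, Benjamini-Hochberg adjustment over all genes tested, threshold 0.05. All 9 members passed the filter in every comparison. Scripts were tested on simulated data. Alternatives were DESeq2 1.42.0, limma-voom with quality weights (limma 3.58.1), RLE or total-count scaling, no filter, at least 10 counts in every library, a fit of all 34 libraries and each library left out. Offsets for GC content and length, and fits without 16-week CD replicates 1 and 2 or with both the offsets and 16 L replicate 18 left out, were added after the data were seen. RPKM used exon lengths. Sequences are from RefSeq tables of GRCm38.p6. All 9 members are named in every comparison; list genes are named when called, at most 20 per comparison by p (some that are counted are not reported here by name), and for likeness the 2 genes with the highest rho per member. Members and lists were chosen with earlier results of these data known, so no list is independent evidence. Total counts of 1104611 to 13207018 set the precision of low values, where reads are not independent molecules.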

Additional observations from a re-analysis of the deposited data

Results flagged for a closer look

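Of 45 combinations of a member and a group of 4 to 10 libraries, 5 held a library that stood apart from the rest by Dixon's criterion, which chance meets in about 1 of 20 groups. In 16 L, replicate 18 was lowest for Rptor, at 10.0 normalised CPM with the next library at 33.1, and for Tsc2, at 12.8 with the next at 77.9. The same replicate was highest for Foxo3, at 393 with the next at 59.9. This is the library with the oviduct and red blood cell markers, and its part in these values was not tested. In 16-week CD, replicate 9 was highest for Foxo3, at 398 with the next at 119. In 4-week HFD, replicate 14 was lowest for Tsc2, at 61.5 with the next at 80.8.

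The leptin effect differed from the 4-week diet effect, by edgeR's test of the difference itself, for Tsc2 (2.17 on the log2 scale), Rptor (1.88) and Akt2 (1.64). In that contrast 27.2% of all genes were called. With GC and length offsets Tsc2 (0.96), Rptor (0.28) and Akt2 (0.55) did not pass.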

How the results depend on the processing

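No paired analysis was possible because the groups compared share no replicate numbers that mark the same mice. Members called, out of 9, changed as follows; the causes were not tested. For 16 L against 16 C the count of 1 became 5 (DESeq2), 8 (limma-voom), 5 (total counts), 2 (a minimum of 10 counts per library), 7 (all 34 libraries), 0 (GC and length offsets), 3 (offsets with 16 L replicate 18 left out) and 0 to 7 with each library left out. In the same order, calls over all genes went from 1004 to 2629, 7552, 4035, 912, 4384, 626, 3496 and 30 to 4635. For the 4-week diet, 0 became 1 (DESeq2), 5 (limma-voom), 1 (total counts) and 0 to 1 with each library left out. Over all genes, 499 calls became 1291, 4048, 662 and 8 to 1700. For the 16-week diet, 0 became 3 (DESeq2), 5 (total counts), 4 (all 34 libraries) and 0 to 6. The 3 calls over all genes became 1056, 1646, 1258 and 1 to 2222. For the low gainers against HFD, 3 became 4 (limma-voom), 2 (all 34 libraries), 1 (minimum of 10 counts, where Akt1 and Akt2 are not tested), 1 (offsets) and 1 to 3, and against CD 0 became 1 (DESeq2). Calls over all genes went from 2330 to 3287, 487, 1973, 1055 and 596 to 2732, and against CD from 1 to 250. For the diet effect at 16 against 4 weeks, 0 became 1 (DESeq2, RLE, total counts, minimum of 10 counts and offsets), 2 (limma-voom) and 0 to 3. Over all genes, 448 calls became 1165, 605, 873, 454, 762, 2355 and 69 to 1685. For leptin against the 4-week diet, 3 became 5 (DESeq2, minimum of 10 counts and all 34 libraries), 7 (limma-voom and total counts), 0 (offsets) and 3 to 6. The 3521 calls over all genes became 4096, 2051, 3989, 7908, 5912, 2480 and 2146 to 5542.

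Calls among the list genes ranged, over all settings, from 1 to 59 for 16 L against 16 C (11 as reported), from 0 to 22 for the 4-week diet (1), from 0 to 17 for the 16-week diet (0), from 3 to 26 for the low gainers against HFD (17), from 0 to 1 against CD (0), from 0 to 13 for the diet effect at 16 against 4 weeks (0) and from 16 to 54 for leptin against the 4-week diet (28). Calls over all genes ranged widely as well. In the same order they ran from 30 to 7552, 8 to 4048, 0 to 2222 and 487 to 3287. The last of these comparisons ran from 0 to 250, 69 to 2355 and 2051 to 7908.

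Values that changed sign belonged to members that were not called, and to Stk11, which was. They were, for 16 L against 16 C, Mtor at -0.030 (limma-voom), -0.63 (offsets), -0.70 (offsets without replicate 18) and -0.13 to 0.27 with each library left out. At 4 weeks they were Akt2 at 0.19 (limma-voom), 0.014 (no filter), 0.029 (minimum of 10 counts), 0.0071 (all 34 libraries), 0.18 (offsets) and -0.11 to 0.11, and Akt1 at -0.0089 to 0.37. At 16 weeks Tsc1 was at 0.11 (offsets) and 0.054 (without CD replicates 1 and 2). For the low gainers against HFD they were Rptor at 0.045 (total counts) and -0.25 to 0.13, Mtor at -0.11 (offsets) and Tsc2 at -0.21 (offsets). Against CD they were Akt1 at -0.12 and Akt2 at -0.13 (total counts), Foxo3 at -0.050 (offsets), -0.18 (without CD replicates 1 and 2) and -0.11 to 1.11, Mtor at 0.077 (without CD replicates 1 and 2) and Pik3ca at -0.43 to 0.0069. For the diet effect at 16 against 4 weeks they were Mtor at 0.022 (limma-voom), 0.034 (offsets), 0.15 (without CD replicates 1 and 2) and -0.28 to 0.016, Tsc2 at 0.17 and Foxo1 at 0.022 (without CD replicates 1 and 2), and Foxo1 at -0.18 to 0.070. For leptin against the 4-week diet they were Pik3ca at 0.73 (total counts), 0.015 (minimum of 10 counts) and 0.079 (offsets), Akt1 at -0.33 (offsets) and -0.19 (offsets without replicate 18), Mtor at -0.75 and -0.80, and Stk11 at -0.095 and -0.23. Depth limits Akt1 and Akt2 most, at 8 or 9 reads in the shallowest cases.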
